A study of Mus musculus with 12 samples.

Results

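The genes described here encode 9 receptors with which a CD8+ T cell leaves lymphoid tissue, rolls on vessel walls, arrests and stays in a tissue. They were taken by name (S1pr1, Cd44, Selplg, Itgal, Itgb2, Itga4, Itgb1, Itgb7 and Itgae). No measured value entered the rule, although results of these data were already known when the list was made. All 9 were among the 56748 genes of the count table, and all 9 were among the 15688 genes that passed the filter on low counts and were tested.

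S1PR1 is the receptor for sphingosine 1-phosphate, the lipid that draws T cells out of lymphoid organs. Rolling uses PSGL-1, the selectin ligand encoded by Selplg, and CD44, which binds hyaluronan. Firm arrest uses integrins, each a pair of an alpha and a beta subunit: Itgal with Itgb2 makes LFA-1, the receptor for ICAM ligands, and Itga4 with Itgb1 makes VLA-4, the receptor for VCAM-1 and fibronectin. Itga4 can instead pair with Itgb7, a heterodimer that binds MAdCAM-1 on gut vessels, and Itgae (CD103) pairs with Itgb7 to bind E-cadherin on epithelium.

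Bulk RNA sequencing was done on CD8+ T cells grown from spleens of 6 T cell receptor transgenic mice, 3 in experiment 2 and 3 in experiment 1. In the DCA groups the cells were expanded for 6 days in 5 mM dichloroacetate (DCA), an inhibitor of the pyruvate dehydrogenase kinases. The untreated groups had the same expansion with no DCA, and each mouse gave cells to both arms. In all groups, whole spleens had first been exposed for 24 hours to the peptide that the receptor recognises (1 uM gp100 for pmel-1, 250 nM SIINFEKL for OT-1), IL-2 was in the medium, and CD8+ cells were sorted on day 7. The mice of experiment 2 are labelled Pmel-1, of the B6.Cg-Thy1a/Cy strain with the transgene Tg(TcraTcrb)8Rest/J. Those of experiment 1 carry the strain tag OT-1 and the genotype C57BL/6-Tg(TcraTcrb)1100Mjb/J, while their titles say Pmel-1. The labels give no ages. In each experiment the cells carried a single transgenic receptor and were grown in culture from peptide-stimulated spleen, which limits the model, and homing itself was not measured.

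The 12 libraries held 28039699 to 41051066 counts. T cell receptor segments went with the tags and not with the titles of experiment 1. The pmel-1 receptor uses the beta gene segment Trbv14, whose level was 1680 to 2580 CPM (counts scaled to a fixed library total) in all libraries of experiment 2, with 0 counts in experiment 1. The OT-1 receptor uses Trbv12-1, with 0.0588 to 0.493 CPM in experiment 2 and 202 to 236 CPM in experiment 1. Strain, technical batch and experiment coincide and cannot be told apart. The 5 CD8 T cell markers summed to 3230 to 3390 CPM in DCA and 4000 to 4480 CPM in untreated libraries of experiment 2, and to 4730 to 5050 CPM in DCA and 4380 to 5120 CPM in untreated libraries of experiment 1. Of the markers of other splenic cells, Cd4 reached 0.701 CPM, Lyz2 0.382 CPM, Csf1r 0.0554 CPM, Ms4a1 0.0303 CPM and Ncr1 0.156 CPM in any library. Other genes of the same lists were higher: Cd68 of the macrophage list was at 6.7 to 29.9 CPM and Cd14 at up to 3.44 CPM, Klrb1c of the NK cell list at up to 14 CPM, Zbtb7b of the CD4 T cell list at 5.04 to 8.06 CPM, and Cd79b of the B cell list at 15 to 41.9 CPM. These levels overlap those of Itgae and Itga4.

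Of the 9 receptors, 4 changed with DCA over both experiments, 3 up and 1 down. Itgae, S1pr1 and Itga4 rose and Itgb1 fell (edgeR quasi-likelihood test with experiment as a term, Benjamini-Hochberg adjusted p under 0.05), and each of these moved the same way in all 6 mice. Of all tested genes 16.8% were called in this comparison, 7.01% higher and 9.8% lower. The median log2 fold change, DCA over untreated, was 0.14 over the 9 receptors and -0.02 over all tested genes. Cd44, Selplg, Itgal, Itgb2 and Itgb7 were not called. In bulk RNA of a sorted population, fewer cells that express a gene and less RNA per cell cannot be told apart.

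Within experiment 2, DCA raised Itgae, S1pr1, Itga4 and Cd44 and lowered Itgb1, where 2.37% of all tested genes were higher and 2.2% lower (4.57% called). Within experiment 1 it raised Itgae, Itga4, Itgb7 and Itgb2 and lowered Itgb1 and Cd44, where 5.67% of all tested genes were higher and 11% lower (16.7% called). The share of calls that were higher with DCA moved with the scaling: 41.7% over both experiments and 54.2% after cyclic loess, 51.9% in experiment 2 against 64.4% after cyclic loess and 40.8% by DESeq2, and 33.9% in experiment 1 against 51% after cyclic loess. Cd44 moved in opposite directions, and it was the only 1 of the 9 whose DCA effect passed the test of the difference between the experiments, in which 0.331% of all tested genes were called (0.28% with the higher and 0.051% with the lower effect in experiment 2).

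**Figure D1:**
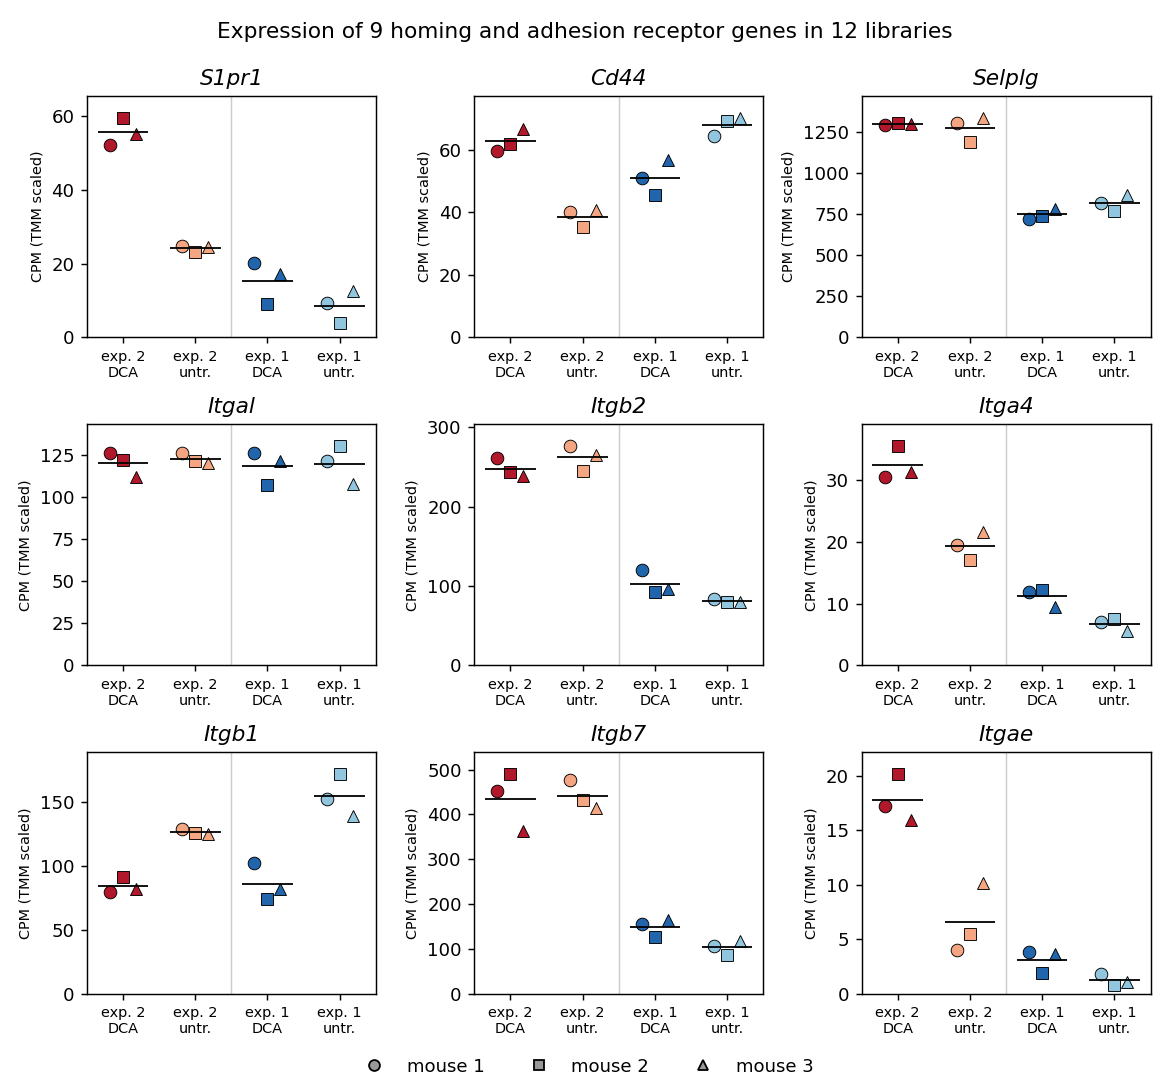
Expression of each receptor gene in the 12 libraries, in CPM scaled by TMM (the trimmed mean of M-values, which corrects library composition), on linear axes that start at 0. Each point is 1 library, its shape the mouse, and each line the mean of 3 mice. The DCA libraries lie above the untreated libraries of the same experiment for Itga4 and Itgae and below them for Itgb1, while Cd44 lies above in experiment 2 and below in experiment 1.

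S1pr1, the egress receptor, was about 2-fold higher with DCA. In experiment 2 it was at 52.1, 59.6 and 55.2 CPM in the DCA libraries of mice 1, 2 and 3, against 24.7, 23.2 and 24.4 CPM in their untreated libraries. In experiment 1 it was at 20.1, 8.93 and 17.1 CPM in the DCA libraries and at 9.21, 3.79 and 12.5 CPM in the untreated libraries. The groups of experiment 2 stood well apart, and those of experiment 1 overlapped, with mouse 2 low in both arms, although each mouse was higher with DCA. Over both experiments the log2 fold change was 1.04 ± 0.23 (SE, n = 6 mice, adjusted p = 0.0064 by edgeR). It was 1.21 ± 0.32 in experiment 2 (adjusted p = 0.0445 by edgeR) and 0.86 ± 0.33 in experiment 1 (adjusted p = 0.0921 by edgeR, not called).

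The S1pr1 call over both experiments held in each of the 12 fits that left out 1 library, with log2 fold changes of 0.90 to 1.23. The call within experiment 2 was lost without any 1 of the 6 libraries of experiment 2, without untreated mouse 1 or without DCA mouse 3 of experiment 1 (adjusted p up to 0.168 by edgeR) and after cyclic loess scaling (adjusted p = 0.0773 by limma), and the fit with a term per mouse gave 0.92 in experiment 1 (adjusted p = 0.00617 by edgeR), as against no call without it. Without untreated mouse 3 or DCA mouse 2 of experiment 1, S1pr1 was also called there (adjusted p = 0.0229 and 0.0279 by edgeR), as it was with no filter (adjusted p = 6.36e-06 by edgeR) and with a filter at 5 CPM in 3 libraries (adjusted p = 0.0414 by edgeR). With no filter, 38665 genes entered the fit and the log2 fold change stayed at 0.86, so that adjusted p does not reflect a larger effect.

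Selplg, which encodes the scaffold of the P-selectin ligand, was the most abundant of the 9 transcripts per kilobase and was not called with DCA. Its level was 1295, 1305 and 1298 CPM in the DCA libraries of experiment 2 and 1303, 1186 and 1335 CPM in the untreated libraries. In experiment 1 the DCA libraries were at 722, 738 and 783 CPM and the untreated libraries at 820, 768 and 865 CPM. The groups overlapped in both experiments. The log2 fold change over both was -0.05 ± 0.05 (SE, n = 6 mice, adjusted p = 0.543 by edgeR), and 1 of 6 mice was higher with DCA.

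Cd44, the hyaluronan receptor that also marks activated and memory T cells, had opposite DCA effects in the 2 experiments. In experiment 2 the DCA libraries were at 59.6, 61.9 and 66.6 CPM, against 39.9, 35.1 and 40.8 CPM in the untreated libraries. In experiment 1 the DCA libraries were at 51.0, 45.4 and 56.7 CPM, against 64.5, 69.2 and 70.1 CPM in the untreated libraries. The arms did not overlap in either experiment, and the DCA libraries of the 2 experiments lay closer to each other than the untreated libraries did. The log2 fold change was 0.70 ± 0.10 in experiment 2 (SE, n = 3 mice, adjusted p = 0.00225 by edgeR) and -0.41 ± 0.10 in experiment 1 (adjusted p = 0.0137 by edgeR). Over both experiments it was 0.14 ± 0.16 (adjusted p = 0.617 by edgeR), with 3 of 6 mice higher.

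The difference between the Cd44 effects, experiment 2 minus experiment 1, was 1.11 ± 0.15 on the log2 scale (adjusted p = 0.0107 by edgeR). That call was lost without untreated mouse 1 or 2 or DCA mouse 2 or 3 of experiment 2 (difference of 0.96 to 1.2 over the 12 fits, adjusted p up to 0.0902 by edgeR), while both calls within an experiment held in all 12 fits. Cd44 in experiment 1 was at -0.29 after cyclic loess scaling (adjusted p = 0.0782 by limma) and at -0.34 in a fit of that experiment alone (adjusted p = 0.0906 by edgeR). Counts per gene do not separate the spliced forms of Cd44.

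Neither LFA-1 subunit, Itgal or Itgb2, was called with DCA over both experiments, and Itgb2 was called in experiment 1. Itgal, the alpha subunit, was at 126, 122 and 112 CPM in the DCA libraries of experiment 2, against 126, 121 and 120 CPM in the untreated libraries. In experiment 1 it was at 126, 107 and 122 CPM in the DCA libraries and at 121, 130 and 108 CPM in the untreated libraries. All 12 values lay within 1 narrow band, with no order by arm. The log2 fold change over both experiments was -0.02 ± 0.06 (SE, n = 6 mice, adjusted p = 0.846 by edgeR). Its sign turned under cyclic loess scaling (0.09) and with a stricter filter (0.02), both uncalled.

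Itgb2, the beta subunit shared by the leukocyte integrins, was at 261, 244 and 239 CPM in the DCA libraries of experiment 2, against 276, 245 and 265 CPM in the untreated libraries. The DCA libraries of experiment 1 were at 120, 92.5 and 95.7 CPM, against 83.5, 80.4 and 79.4 CPM in the untreated libraries. The arms overlapped in experiment 2, and in experiment 1 each DCA library was above each untreated library. Itgb2 rose in experiment 1 by 0.34 ± 0.09 on the log2 scale (SE, n = 3 mice, adjusted p = 0.0221 by edgeR). It was at -0.08 ± 0.09 in experiment 2 (adjusted p = 0.73 by edgeR) and at 0.13 ± 0.09 over both (adjusted p = 0.351 by edgeR). The difference between the experiments, -0.42 ± 0.13, was not called by edgeR (adjusted p = 0.156) and was called by DESeq2 at -0.46 (adjusted p = 0.0297). The call in experiment 1 was lost without untreated mouse 2 or 3 or DCA mouse 1 of that experiment (log2 fold change of 0.21 to 0.41 over the 12 fits, adjusted p up to 0.0996 by edgeR) and in a fit of that experiment alone (adjusted p = 0.0528 by edgeR).

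The VLA-4 subunits Itga4 and Itgb1 moved in opposite directions with DCA. Itgb7, the alternative partner of Itga4, rose like Itga4 in experiment 1 and was not called in experiment 2. The promoters of these 3 genes are shown because their transcripts share a heterodimer partner and did not move together. Sequences are those of RefSeq on GRCm38.p6, from 250 bases before to 50 bases after the annotated start, 5′ to 3′ on the gene's strand. Capitals mark matches on either strand to the GC box (letters GGGCGG), the core of the KLF family (letters CACCC), the E-box (letters CACGTG), the ETS core (letters CCGGAAG), the RUNX core (letters TGTGGT), the SMAD core (letters CAGAC) and the TATA box (letters TATAAA). Of the 9 genes, 4 had an entry in the table, and Cd44 is the fourth. The window of Itga4 is chr2:79255176-79255475 (+ strand), that of Itgb1 is chr8:128685404-128685703 (+ strand) and that of Itgb7 is chr15:102231886-102232185 (- strand).
Itga4: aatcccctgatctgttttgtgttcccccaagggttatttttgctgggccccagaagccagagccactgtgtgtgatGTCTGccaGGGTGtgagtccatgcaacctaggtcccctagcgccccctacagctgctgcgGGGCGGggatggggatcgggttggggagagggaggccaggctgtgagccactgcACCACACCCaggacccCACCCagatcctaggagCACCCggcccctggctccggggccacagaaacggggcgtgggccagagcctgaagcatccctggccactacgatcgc
Itgb1: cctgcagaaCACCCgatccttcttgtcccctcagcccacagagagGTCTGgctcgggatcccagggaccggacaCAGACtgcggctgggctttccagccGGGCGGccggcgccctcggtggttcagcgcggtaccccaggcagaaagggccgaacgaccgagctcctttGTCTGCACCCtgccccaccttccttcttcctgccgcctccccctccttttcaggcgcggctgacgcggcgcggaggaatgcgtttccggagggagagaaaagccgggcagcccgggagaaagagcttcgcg
Itgb7: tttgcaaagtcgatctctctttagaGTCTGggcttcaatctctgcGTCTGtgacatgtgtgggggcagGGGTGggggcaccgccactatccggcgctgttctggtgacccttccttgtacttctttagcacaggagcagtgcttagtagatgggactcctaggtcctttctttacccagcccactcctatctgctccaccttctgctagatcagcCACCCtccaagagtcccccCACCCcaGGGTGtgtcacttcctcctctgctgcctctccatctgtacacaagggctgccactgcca

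The Itga4 window held 1 GC box, 4 KLF, 1 RUNX and 1 SMAD match, the RUNX match overlapping a KLF match, and 64.3% of its bases were G or C. The Itgb1 window held 1 GC box, 2 KLF and 3 SMAD matches, with 67.3% G or C. The Itgb7 window held 4 KLF and 2 SMAD matches and no GC box, with 56.3% G or C. None of the 3 held the E-box, the ETS core or the TATA box. The KLF and SMAD cores were common to all 3 windows, and both are frequent: of 32851 promoter windows of the same length, 57.5% held the KLF core, 49.6% the SMAD core, 35.7% the GC box, 16.8% the RUNX core, 13.6% the TATA box, 8.86% the ETS core and 7.15% the E-box. A match is a description of the letters and not a binding site.

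Itga4 was at 30.4, 35.5 and 31.3 CPM in the DCA libraries of experiment 2, against 19.5, 17.1 and 21.6 CPM in the untreated libraries. In experiment 1 it was at 11.9, 12.2 and 9.47 CPM in the DCA libraries, against 7.06, 7.51 and 5.61 CPM in the untreated libraries. Each DCA library was above each untreated library of its experiment. Itga4 rose by 0.74 ± 0.11 on the log2 scale over both experiments (SE, n = 6 mice, adjusted p = 0.000575 by edgeR), by 0.74 ± 0.15 in experiment 2 (adjusted p = 0.0152 by edgeR) and by 0.73 ± 0.16 in experiment 1 (adjusted p = 0.00668 by edgeR). The difference between the experiments was 0.00 ± 0.23 on the log2 scale. Leaving out untreated mouse 1 or 2 or DCA mouse 1 or 2 of experiment 2 ended the call within that experiment (log2 fold change of 0.62 to 0.78 over the 12 fits, adjusted p up to 0.0995 by edgeR), and the call over both experiments held in all 12 fits.

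Itgb1, the beta subunit common to the VLA integrins, fell with DCA. It was at 79.7, 91.3 and 82.1 CPM in the DCA libraries of experiment 2, against 129, 125 and 125 CPM in the untreated libraries. The DCA libraries of experiment 1 were at 102, 73.8 and 82.2 CPM, against 152, 172 and 139 CPM in the untreated libraries. All 6 DCA libraries were below all 6 untreated libraries, across the experiments as well as within them. The log2 fold change over both experiments was -0.71 ± 0.09 (SE, n = 6 mice, adjusted p = 0.000186 by edgeR), with -0.58 ± 0.11 in experiment 2 (adjusted p = 0.0102 by edgeR) and -0.85 ± 0.11 in experiment 1 (adjusted p = 0.000366 by edgeR). These 3 calls held in each of the 12 fits that left out 1 library.

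Itgb7, the beta subunit of the gut-homing and epithelial integrins, was at 452, 490 and 362 CPM in the DCA libraries of experiment 2, against 478, 432 and 415 CPM in the untreated libraries. Those of experiment 1 were at 156, 127 and 164 CPM with DCA, against 107, 86.9 and 117 CPM in the untreated libraries. The arms overlapped in experiment 2 and were apart in experiment 1, where mouse 2 was the lowest in both. Itgb7 rose in experiment 1 by 0.52 ± 0.13 on the log2 scale (SE, n = 3 mice, adjusted p = 0.0133 by edgeR) and was at -0.02 ± 0.13 in experiment 2 (adjusted p = 0.963 by edgeR). Over both experiments it was at 0.25 ± 0.12 (adjusted p = 0.16 by edgeR), with 4 of 6 mice higher, and it was called at that value with no filter on low counts (adjusted p = 0.00905 by edgeR). The difference between the experiments was -0.55 ± 0.18 (adjusted p = 0.183 by edgeR), called by DESeq2 (adjusted p = 0.039) and with no filter (adjusted p = 0.00533 by edgeR). The call in experiment 1 was lost without untreated mouse 2 of that experiment (adjusted p = 0.0586 by edgeR).

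Itgae, the alpha subunit that anchors T cells to epithelium, had the highest fold change of the 9 receptors. In experiment 2 it was at 17.2, 20.2 and 15.9 CPM in the DCA libraries, against 4.0, 5.52 and 10.2 CPM in the untreated libraries. In experiment 1 it was at 3.82, 1.90 and 3.62 CPM in the DCA libraries, against 1.79, 0.805 and 1.02 CPM in the untreated libraries, the lowest of which rests on 27 counts. The arms did not overlap in either experiment, mouse 2 was the lowest of experiment 1 in both arms, and the fold differed most among the mice of experiment 2, whose untreated mouse 3 was the highest of its group. The log2 fold change was 1.41 ± 0.25 over both experiments (SE, n = 6 mice, adjusted p = 0.00201 by edgeR), 1.43 ± 0.35 in experiment 2 (adjusted p = 0.031 by edgeR) and 1.38 ± 0.39 in experiment 1 (adjusted p = 0.0268 by edgeR).

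The Itgae call over both experiments held in the 12 fits that left out 1 library (log2 fold change of 1.27 to 1.64). The call in experiment 2 was lost without any library of that experiment but untreated mouse 3 (adjusted p up to 0.151 by edgeR). The call in experiment 1 was lost without untreated mouse 2 or 3 or DCA mouse 1 or 3 of that experiment (adjusted p up to 0.107 by edgeR), in limma-voom (adjusted p = 0.107) and in a fit of experiment 1 alone (adjusted p = 0.0698 by edgeR).

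**Figure D2:**
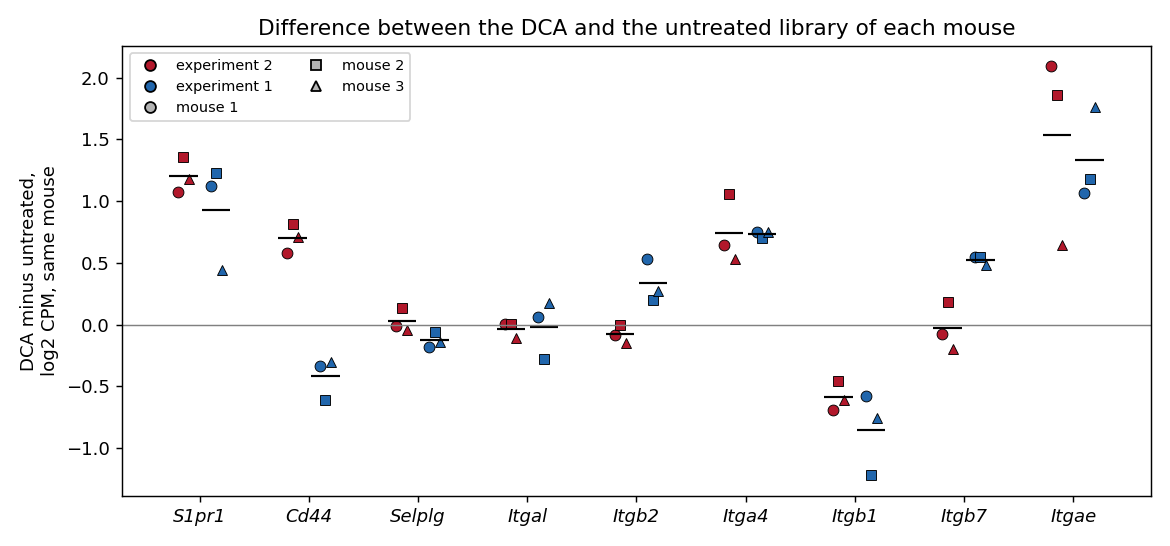
Difference in log2 CPM between the DCA and the untreated library of the same mouse, for each of the 9 genes. Points are mice (shape) of experiment 2 (red) and experiment 1 (blue), and lines are means of 3 mice. S1pr1, Itga4 and Itgae lie above 0 and Itgb1 below 0 in all 6 mice, and Cd44 is above 0 in experiment 2 and below 0 in experiment 1.

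Some marker lists of the studied and of other cell types also differed between the arms. The CD8 T cell sum overlapped between the arms of experiment 1, and the macrophage and monocyte sum overlapped in both experiments. The sum of the CD8 T cell markers, given above, was lower with DCA in experiment 2, where Cd8a was at 479 to 537 CPM in DCA and 629 to 662 CPM in untreated libraries, Cd8b1 at 492 to 540 CPM in DCA and 642 to 690 CPM in untreated libraries, Cd3d at 785 to 793 CPM in DCA and 943 to 1080 CPM in untreated libraries, and Cd3g at 1140 to 1240 CPM in DCA and 1430 to 1680 CPM in untreated libraries. Cd3e overlapped between the arms of experiment 2, at 286 to 388 CPM in DCA and 341 to 365 CPM in untreated libraries. Only Cd8b1 of this list was called over both experiments (-0.21, adjusted p = 0.022 by edgeR). The B cell list summed to 28.4 to 33.5 CPM in DCA and 21.3 to 24.2 CPM in untreated libraries of experiment 2, and to 29.3 to 42 CPM in DCA and 15 to 22.3 CPM in untreated libraries of experiment 1. Cd79b made up nearly all of that sum (log2 fold change 0.75, adjusted p = 0.00223 by edgeR). The NK cell list summed to 2.39 to 5 CPM in DCA and 5.92 to 7.18 CPM in untreated libraries of experiment 2, and to 35.8 to 41 CPM in DCA and 45.3 to 72.3 CPM in untreated libraries of experiment 1, most of it Eomes (-0.91, adjusted p = 0.00178 by edgeR), a factor that CD8 T cells also express. The macrophage and monocyte list summed to 13.9 to 16.7 CPM in DCA and 7.18 to 15.2 CPM in untreated libraries of experiment 2, and to 12 to 33.3 CPM in DCA and 9.36 to 13.3 CPM in untreated libraries of experiment 1. Its most abundant members were Cd68 (log2 fold change 0.58, adjusted p = 0.143 by edgeR) and Cd14 (1.27, adjusted p = 0.133 by edgeR). The part of these lists in the receptor results was not tested.

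Ratios of subunits within a library ask how the balance of integrin subunits at the RNA level differed between the arms, free of scaling between libraries. The subunits of a ratio share a heterodimer, but for Itgb7 and Itgb1, which are alternative beta partners of Itga4. The ratio was taken of counts per kilobase, and 4 ratios were tested over the 6 mice by a two-sided exact permutation test of the signs, whose smallest possible p is 0.03125. Itga4 per Itgb1 was 0.112 ± 0.00135 in DCA and 0.0448 ± 0.0054 in untreated libraries of experiment 2, and 0.0387 ± 0.00837 in DCA and 0.0127 ± 0.000861 in untreated libraries of experiment 1 (SD, n = 3 each). Itgb7 per Itgb1 was 7.59 ± 0.971 in DCA and 5.14 ± 0.301 in untreated libraries of experiment 2, and 2.58 ± 0.344 in DCA and 1.01 ± 0.251 in untreated libraries of experiment 1. Both ratios were higher with DCA in 6 of 6 mice. For Itga4 per Itgb1 this follows from the rise of Itga4 and the fall of Itgb1 in each mouse, so its test is not separate evidence. Itgb7 itself did not rise in experiment 2 (log2 fold change -0.02), where its ratio mostly restates the fall of Itgb1. The mean log2 difference was 1.46 ± 0.27 for Itga4 per Itgb1 and 0.97 ± 0.51 for Itgb7 per Itgb1 (SD, n = 6 mice, exact p = 0.03125 each, 0.0417 adjusted over the 4 ratios).

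Itgae per Itgb7 was 0.0249 ± 0.00178 in DCA and 0.00921 ± 0.00506 in untreated libraries of experiment 2, and 0.0124 ± 0.003 in DCA and 0.00702 ± 0.00273 in untreated libraries of experiment 1 (SD, n = 3 each). All 6 mice had the higher ratio with DCA, with a mean log2 difference of 1.22 ± 0.64 (SD, n = 6, exact p = 0.03125, adjusted 0.0417). Itgae itself rose in all 6 mice, so this test is not separate evidence of that rise. Itgb7 did not rise in experiment 2 (log2 fold change -0.02), where the ratio mostly restates the rise of Itgae. Itgal per Itgb2 was 0.225 ± 0.00722 in DCA and 0.218 ± 0.011 in untreated libraries of experiment 2, and 0.539 ± 0.0514 in DCA and 0.686 ± 0.0619 in untreated libraries of experiment 1. It was higher with DCA in all 3 mice of experiment 2 and lower in all 3 of experiment 1, and the mean over the 6, -0.15 ± 0.26, did not pass (exact p = 0.3125). Protein on the cell surface was not measured, and a ratio shows unequal change between subunits and not which of them changed.

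**Figure D3:**
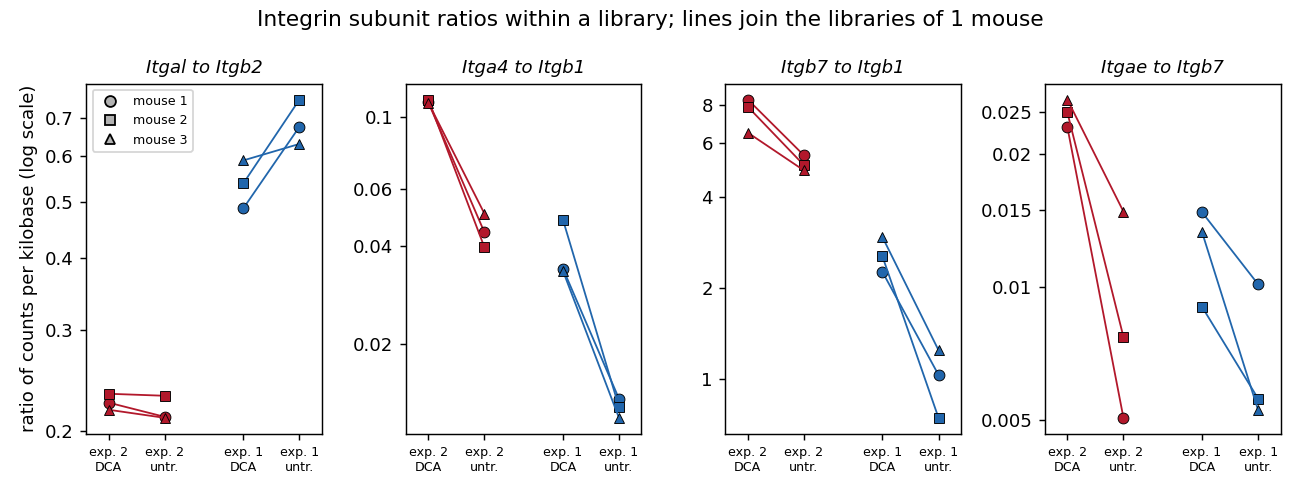
Ratio of counts per kilobase between integrin subunits in each library, for 4 ratios, on log axes. Itgb7 and Itgb1 are alternative beta partners of Itga4 and not a pair. Lines join the DCA and the untreated library of 1 mouse, red in experiment 2 and blue in experiment 1. Itga4 to Itgb1, Itgb7 to Itgb1 and Itgae to Itgb7 are higher in the DCA library of every mouse, and Itgal to Itgb2 is so only in experiment 2.

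Compared per kilobase of the gene length that the authors deposited, Selplg stood first in every group, at 304 ± 1.24 CPM per kilobase in DCA and 298 ± 18.3 in untreated libraries of experiment 2, and at 175 ± 7.42 in DCA and 191 ± 11.4 in untreated libraries of experiment 1 (SD, n = 3 each). Itgb7 and Itgb2 followed in both arms of experiment 2, at 157 ± 23.7 and 81.2 ± 3.92 CPM per kilobase with DCA and at 159 ± 11.8 and 85.8 ± 5.29 without. Next in experiment 2 with DCA came Itgb1 (20.7 ± 1.49), S1pr1 (18.3 ± 1.23) and Itgal (18.3 ± 1.11), where S1pr1 overlapped with each of the other two and Itgb1 lay above Itgal. In the untreated cells of experiment 2 these 3 stood apart, at 31.0 ± 0.484 for Itgb1, 18.7 ± 0.456 for Itgal and 7.92 ± 0.268 for S1pr1. The lower end held Cd44 (9.25 ± 0.525 with DCA, 5.69 ± 0.449 without), Itgae (3.88 ± 0.474 with DCA, 1.43 ± 0.702 without) and Itga4 (2.32 ± 0.196 with DCA, 1.39 ± 0.164 without), and the untreated libraries of Itgae and Itga4 overlapped.

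In experiment 1 with DCA the order after Selplg was Itgb7 (53.8 ± 7.02 CPM per kilobase), Itgb2 (33.7 ± 5.01), Itgb1 (21.1 ± 3.53), Itgal (18.0 ± 1.51), Cd44 (7.53 ± 0.837), S1pr1 (5.04 ± 1.9), Itga4 (0.801 ± 0.108) and Itgae (0.68 ± 0.231; SD, n = 3 each). The libraries of Itgb1 and Itgal overlapped, as did those of Itga4 and Itgae. In the untreated cells of experiment 1 the order was Itgb1 (37.8 ± 4.07), Itgb7 (37.4 ± 5.58), Itgb2 (26.6 ± 0.703), Itgal (18.2 ± 1.73), Cd44 (10.0 ± 0.45), S1pr1 (2.79 ± 1.45), Itga4 (0.481 ± 0.0709) and Itgae (0.264 ± 0.113). Itgb1 and Itgb7 overlapped there, and the other neighbours did not. Both alpha subunits that pair with Itgb7 were thus far below it per kilobase in every group.

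**Figure D4:**
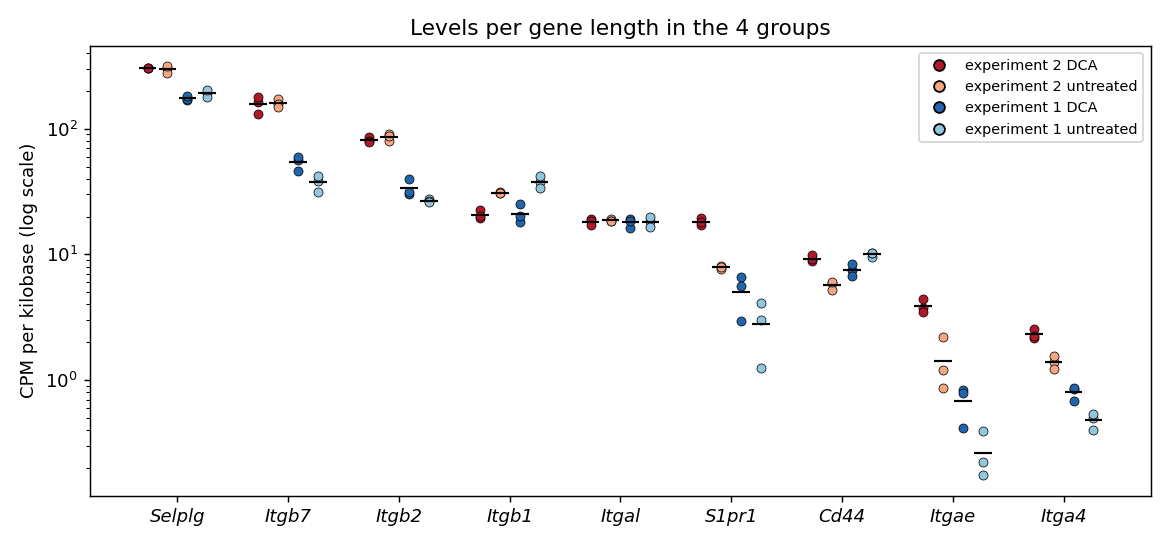
Level of the 9 genes in CPM per kilobase on a log axis, ordered by the mean over the 4 groups. Points are libraries and lines are group means (n = 3 each). Selplg is at the top and Itga4 and Itgae at the bottom in each group, and Itgal is at about the same height in all 4.

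The comparison of experiment 2 with experiment 1 addresses how these receptors differed between the cultures in the absence and in the presence of DCA, with strain, batch and experiment together. In DCA libraries, 7 of the 9 receptors were higher in experiment 2 and 0 lower, where 28.1% of all tested genes were higher and 24.1% lower (52.3% called). In untreated libraries, 6 were higher and 2 lower, where 26.7% of all tested genes were higher and 25.2% lower (51.8% called). The median log2 fold change was 1.27 in DCA and 1.51 in untreated libraries over the 9 receptors, and 0.11 in each arm over all tested genes.

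Itgae differed most, by 2.52 ± 0.37 on the log2 scale in DCA libraries (SE, n = 3 mice each, adjusted p = 3.96e-05 by edgeR) and 2.46 ± 0.39 in untreated libraries (adjusted p = 8.13e-05 by edgeR). Itgb7 was higher by 1.54 ± 0.13 in DCA and 2.09 ± 0.13 in untreated libraries, Itga4 by 1.53 ± 0.16 in both, S1pr1 by 1.86 ± 0.33 in DCA and 1.51 ± 0.33 in untreated libraries, Itgb2 by 1.27 ± 0.09 in DCA and 1.69 ± 0.10 in untreated libraries, and Selplg by 0.80 ± 0.06 in DCA and 0.64 ± 0.06 in untreated libraries (all called by edgeR). In both arms, each library of experiment 2 was above each library of experiment 1 for these 6 genes. Itgal was not called, at 0.02 ± 0.09 in DCA (adjusted p = 0.88 by edgeR) and 0.03 ± 0.09 in untreated libraries (adjusted p = 0.786 by edgeR), although cyclic loess scaling, which moved the median of all genes by -0.22 in DCA and -0.21 in untreated libraries, called it higher in both arms (0.30 in DCA and 0.42 in untreated libraries).

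Cd44 was higher in experiment 2 in DCA libraries (0.30 ± 0.10, adjusted p = 0.0245 by edgeR) and lower in untreated libraries (-0.82 ± 0.10, adjusted p = 9.04e-06 by edgeR). The DCA call was lost without DCA mouse 2 of experiment 1 or DCA mouse 2 or 3 of experiment 2 (adjusted p up to 0.136 by edgeR) and in a fit of the DCA libraries alone (adjusted p = 0.0582 by edgeR). Itgb1 was at -0.03 ± 0.11 in DCA libraries (adjusted p = 0.861 by edgeR) and lower by a small margin in untreated libraries (-0.29 ± 0.11, adjusted p = 0.0416 by edgeR). That Itgb1 call was lost in 8 of 12 fits that left out 1 library (without any of experiment 2, or untreated mouse 1 or 2 of experiment 1, adjusted p up to 0.231 by edgeR), and its sign turned under cyclic loess scaling (0.07).

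Other measures of the libraries also differed between the experiments, in either direction. Genes with a count numbered 23635 to 26571 in experiment 2 and 18382 to 19551 in experiment 1. Mitochondrially encoded genes took 2.11 to 2.85% of counts in experiment 2 and 1.01 to 1.58% in experiment 1, and the 9 receptors took 0.244 to 0.285% in experiment 2 and 0.108 to 0.123% in experiment 1. The list of endothelial and stromal markers summed to 40.9 to 47.5 CPM in DCA and 42.1 to 42.5 CPM in untreated libraries of experiment 2, and to 13.2 to 22.8 CPM in DCA and 14.2 to 17.5 CPM in untreated libraries of experiment 1. Pecam1, which T cells also express, made up nearly all of it, and Cdh5 reached 0.0305 CPM. The NK cell list ran the other way, at 2.39 to 5 CPM in DCA and 5.92 to 7.18 CPM in untreated libraries of experiment 2. In experiment 1 that list was at 35.8 to 41 CPM in DCA and 45.3 to 72.3 CPM in untreated libraries. The CD8 T cell marker sum was lower in experiment 2 with DCA (3230 to 3390 CPM, against 4730 to 5050 CPM in experiment 1). Its members were split. In these DCA libraries Cd3d, Cd3g and Cd8b1 were lower in experiment 2. Cd8a was higher there (479 to 537 CPM, against 349 to 416 CPM in experiment 1). Cd3e was also higher (286 to 388 CPM, against 110 to 115 CPM). The part of these measures in the receptor differences was not tested.

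**Figure D5:**
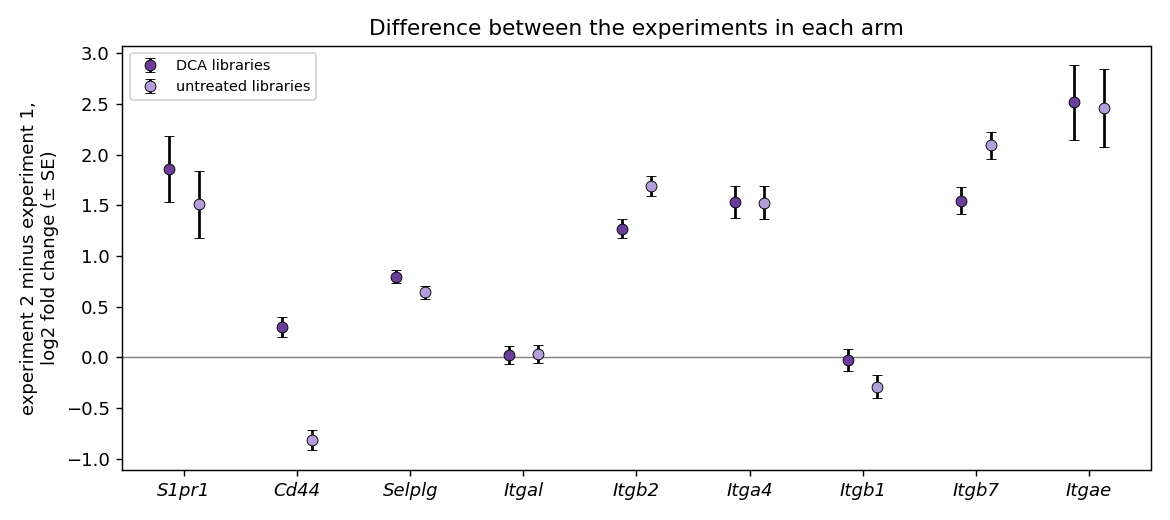
Log2 fold change of experiment 2 over experiment 1 for the 9 genes, in DCA libraries (dark) and untreated libraries (light). Bars are ± SE from the edgeR fit (n = 3 mice each). Of the 9, 6 lie above 0 in both arms, Itgal lies near 0 in both, and Cd44 lies above 0 with DCA and below 0 without.

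Other genes of the adhesion and egress pathways moved in both directions with DCA when both experiments were fitted together. The counts that follow are to be read against all tested genes, of which 7.01% rose and 9.8% fell in the same comparison. The difference between the experiments was not called for any gene of the lists that follow. Of the other integrin subunits, 12 of 21 were tested, 3 rose and 0 fell, with a median log2 fold change of 0.46. Itgb3, a beta subunit of vitronectin and fibrinogen receptors, was at 16.7 ± 3.12 CPM in DCA and 11.4 ± 3.37 CPM in untreated libraries of experiment 2, and at 25.1 ± 6.36 CPM in DCA and 8.12 ± 2.32 CPM in untreated libraries of experiment 1 (SD, n = 3 each). Itgb3 rose by 1.08 ± 0.23 on the log2 scale (SE, n = 6 mice, adjusted p = 0.00567 by edgeR). Itga5, the alpha subunit that pairs with Itgb1 in the fibronectin receptor, rose by 0.91 ± 0.24 (adjusted p = 0.0165 by edgeR). It was low, at 0.57 ± 0.11 CPM in untreated libraries of experiment 1 (SD, n = 3). Itgb3 and Itga5 were called in experiment 1 (adjusted p = 0.00129 and 0.0309 by edgeR) and not in experiment 2 (0.284 and 0.277). Of the proteins that activate and anchor integrins, 23 of 27 were tested, 2 rose and 3 fell, close to the shares over all tested genes, and the median was 0.00. Rasgrp2, the exchange factor for the GTPase Rap1, rose by 0.40 ± 0.10 (adjusted p = 0.0144 by edgeR), and Lims1 (PINCH), an adaptor, by 0.26 ± 0.06 (adjusted p = 0.0124 by edgeR). Fermt3 (kindlin-3), which binds beta tails, fell by 0.41 ± 0.06 (adjusted p = 0.000708 by edgeR), and Skap1, an adaptor, by 0.23 ± 0.05 (adjusted p = 0.00657 by edgeR). Within single experiments, Fermt3 was called in both, Rasgrp2 and Lims1 only in experiment 1, and Skap1 only in experiment 2.

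Among integrin ligands, 6 of 11 were tested, 1 rose and 2 fell (median 0.15). Icam2, a ligand of LFA-1, rose by 0.58 ± 0.15 on the log2 scale (SE, n = 6 mice, adjusted p = 0.0138 by edgeR). Cdh1, which encodes E-cadherin, the ligand of the Itgae heterodimer, fell by 0.67 ± 0.21 (adjusted p = 0.0377 by edgeR), and Jaml by 0.41 ± 0.12 (adjusted p = 0.0327 by edgeR). Within single experiments, Jaml was called only in experiment 1, Cdh1 only in experiment 2 and Icam2 in neither. Of the selectins and the enzymes that make their ligands, 17 of 20 were tested, 0 rose and 2 fell (median 0.05), close to the 9.8% of all tested genes that fell. Gcnt1, the enzyme that branches O-glycans on PSGL-1, fell by 0.70 ± 0.22 (adjusted p = 0.0377 by edgeR) and St3gal4, a sialyltransferase, by 0.38 ± 0.11 (adjusted p = 0.0272 by edgeR). Gcnt1 was called in experiment 2 (-1.17, adjusted p = 0.0217 by edgeR) and not in experiment 1 (-0.25, adjusted p = 0.568 by edgeR). St3gal4 was called in experiment 1 (-0.67, adjusted p = 0.00218 by edgeR) and not in experiment 2 (-0.11, adjusted p = 0.701 by edgeR). The difference between the experiments was not called for Gcnt1 (-0.93, adjusted p = 0.255 by edgeR) or St3gal4 (0.56, adjusted p = 0.146 by edgeR).

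In the sphingosine 1-phosphate axis, 16 of 19 genes were tested, 2 rose and 0 fell (median 0.08). Klf2, the transcription factor that drives S1pr1 in T cells, was at 6.45 ± 0.55 CPM in DCA and 3.45 ± 0.419 CPM in untreated libraries of experiment 2, and at 11.1 ± 5.36 CPM in DCA and 2.85 ± 1.32 CPM in untreated libraries of experiment 1 (SD, n = 3 each). Klf2 rose by 1.43 ± 0.30 on the log2 scale over both (SE, n = 6 mice, adjusted p = 0.00465 by edgeR). It was called in experiment 1 and not in experiment 2, and the difference, -1.07 ± 0.53, was not called (adjusted p = 0.381 by edgeR). Sgpp1, a phosphatase that degrades the lipid, rose by 0.43 ± 0.10 over both (adjusted p = 0.00877 by edgeR) and was called in neither experiment alone. Cd69, which holds S1PR1 inside the cell, was at -0.27 ± 0.09 (adjusted p = 0.0535 by edgeR), and S1pr4 at 0.29 ± 0.13 (adjusted p = 0.128 by edgeR). S1pr5 did not pass the filter on low counts.

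Of Cd44 partners and the linkers to actin, 8 of 14 were tested, 0 rose and 1 fell (median 0.00). That gene was Ezr, which encodes ezrin and fell by 0.36 ± 0.07 on the log2 scale (SE, n = 6 mice, adjusted p = 0.00315 by edgeR). Ezr was called in experiment 2 (adjusted p = 0.00588 by edgeR) and not in experiment 1 (0.0868). TGF-beta is a cytokine that induces Itgae. Its list of 11 genes held the T cell transcription factors Runx3 and Zfp683 beside genes of the TGF-beta pathway. All 11 were tested, 1 rose and 1 fell (median 0.23). Runx3, a transcription factor of CD8 T cells that binds the Itgae locus, rose by 0.32 ± 0.08 (adjusted p = 0.0111 by edgeR) and Smad2, which carries the signal to the nucleus, fell by 0.24 ± 0.08 (adjusted p = 0.0388 by edgeR). Both were called in experiment 1 (adjusted p = 0.0111 for Runx3 and 0.0101 for Smad2 by edgeR) and not in experiment 2 (0.283 and 0.656).

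Genes whose course over the 12 libraries was most like that of a called receptor were sought by the root mean square difference in log2 CPM after each gene was centred on its own mean, with 7905 candidates (tested, mean log2 CPM at or above 3). For S1pr1 they were Tnfsf8 (0.37), Tcf7 (0.38) and Adgre5 (0.42), against a median of 1.2 over all candidates. For Itgae they were Adgre5 (0.39), Tcf7 (0.41) and Dglucy (0.47), against 1.55. Tcf7, a transcription factor of naive and memory T cells, and Adgre5, which encodes CD97, were thus near both S1pr1 and Itgae. For Itga4 they were Pbx4 (0.21), Rps19-ps6 (0.21) and Atf3 (0.24), against 0.94, and the pseudogene may hold reads of its parent gene. For Itgb1 they were H2bc11 (0.15), Stip1 (0.18) and Anapc15 (0.18), against 0.54. All these distances include the difference between the experiments as well as that between the arms.

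In the authors' deposited table of DCA over untreated cells, 1588 of 15067 genes had a false discovery rate under 0.05, and S1pr1, Itga4, Itgb1 and Itgae were the receptors among them. The authors' deposited table gives log2 fold changes of 1.04 for S1pr1, 0.74 for Itga4, -0.71 for Itgb1 and 1.41 for Itgae. In the authors' deposited table the other 5 receptors have false discovery rates of 0.278 to 0.965.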

How the data were processed

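Smart-seq cDNA was amplified over 15 cycles, per the labels' protocols. The authors deposited whole-number read counts for 56748 genes in 12 libraries, not normalized. They also deposited their own comparison, with log2 fold changes and log2 CPM, p-values and false discovery rates, and a gene length column whose definition is not given, per the file headers. The submitters' processing notes name the tools edgeR 3.36.0, STAR 2.7.10a and fastp 0.23.2 and the build GRCm39. Which counter, annotation and strand setting were used is not given in the sources used here. Antisense and overlapping genes thus could not be separated. Symbols came from the deposited table. There were 0 unmapped value columns.

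The 9 genes and the 7 other lists (123 genes) were chosen with earlier results of these data known. In R 4.3.3, edgeR 4.0.16 (TMM, filterByExpr over the 4 groups, quasi-likelihood test) was fitted to the counts of all 12 libraries, with experiment as a term for both experiments together and with 4 group means for the other 5 comparisons. P-values were adjusted by Benjamini-Hochberg over the 15688 tested genes, at a threshold of 0.05. Standard errors were taken from the ratio of the log2 fold change to the root of the F statistic. The fits were tested on simulated data. Alternatives were RLE size factors, DESeq2 1.42.0, limma-voom and cyclic loess (limma 3.58.1), other filters, fits of the compared groups alone, each library left out, and a term per mouse.

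Outside the 9 receptors, the text names up to 2 rising and 2 falling called genes of each list by smallest adjusted p, and S1pr4, S1pr5, Cd69 and Klf2. Results of some genes are not reported here. The mouse numbers pair the libraries because each mouse gave both arms. Deviations from group means correlated at 0.0443 to 0.0834 within a mouse and at -0.0689 to -0.00438 between mice. The ranges are not independent, because centring on group means ties negative values between mice to positive values within a mouse. No library repeated another (replicates differed by a chi-square of 10.8 to 29.8 per degree of freedom). Replicates are different mice. Promoters were matched by symbol and used with their own build.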

Additional observations from a re-analysis of the deposited data

Results flagged for a closer look

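The DCA effect on Cd44 differed between the experiments by the test of the difference itself. It was 0.70 ± 0.10 on the log2 scale in experiment 2 and -0.41 ± 0.10 in experiment 1 (SE, n = 3 mice each), a difference of 1.11 (adjusted p = 0.0107 by edgeR, 0.0284 with a term per mouse). The direction was the same in all 3 mice of each experiment. The call of the difference was lost in 4 of the 12 fits that left out 1 library (adjusted p up to 0.0902 by edgeR). The effect in experiment 1 was not called after cyclic loess scaling (adjusted p = 0.0782 by limma) or in a fit of that experiment alone (adjusted p = 0.0906 by edgeR).

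The ratio of Itgal to Itgb2 counts per kilobase was higher with DCA in every mouse of experiment 2 and lower in every mouse of experiment 1. The mean log2 differences were 0.05 ± 0.04 in experiment 2 and -0.35 ± 0.22 in experiment 1 (SD, n = 3 mice each), and they differ by 0.40. The difference between the experiments was not tested for this ratio.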

How the results depend on the processing

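The 4 receptor calls over both experiments (S1pr1, Itga4, Itgb1 and Itgae) were made in every alternative run and in all 12 fits that left out 1 library. With a term per mouse as the replicate block, 4 receptors were called over both experiments, 7 in experiment 1 (S1pr1 added), 5 in experiment 2 and 1 in the difference, whose genes numbered 24 in place of 52, and it changed no other call of a receptor. The block could not be fitted between experiments, where mice are nested. Without pairing, the ratios gave adjusted p = 0.13 for Itgal to Itgb2 and 0.01, 0.01 and 0.0133 for the others by exact permutation.

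Called genes in experiment 2 numbered 717, against 1512 by DESeq2, 1171 by limma-voom, 1116 with no filter and 1564 in a fit of its own groups. In experiment 1, 2622 became 1251 and 6 receptors became 3 in a fit of its own groups. For the difference, 52 became 458 by DESeq2, 30 by cyclic loess and 566 with no filter, and 1 receptor became 3 by DESeq2 and 2 with no filter. The share of the difference calls with the higher effect in experiment 2 was 84.6%, and 69.4% by DESeq2. The cause was not tested.

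With 1 library left out, called genes ranged from 1981 to 2588 over both experiments, 1759 to 2653 in experiment 1, 210 to 824 in experiment 2 (210, 260 and 271 without untreated mouse 2, DCA mouse 1 and DCA mouse 2 of experiment 2), 1 to 217 for the difference, 7261 to 8422 between experiments in DCA and 7435 to 8361 in untreated libraries. Called receptors ranged from 4 to 4, 3 to 7, 2 to 5, 0 to 1, 6 to 7 and 7 to 8 in the same order. With 1 mouse left out, the mean log2 ratio ranged from 1.37 to 1.52 for Itga4 to Itgb1, 0.81 to 1.08 for Itgb7 to Itgb1, 1.02 to 1.35 for Itgae to Itgb7 and -0.20 to -0.09 for Itgal to Itgb2, and 5 mice cannot pass the exact test.

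Signs that turned were of values not called, but for Itgb1. Selplg in experiment 2 was -0.00138 by RLE and -0.0014 by DESeq2, the Itga4 difference -0.0331 and -0.0334, and Itgal between experiments in DCA -0.00698 and -0.00695. After cyclic loess, Selplg was 0.114 over both and 0.0803 in experiment 1, Itgal 0.0851, 0.144 and 0.0257 over both and in experiments 1 and 2, Itgb7 0.0482 in experiment 2, the Itga4 difference -0.0395, and Itgb1 between experiments 0.236 in DCA and 0.0723 in untreated libraries. With no filter, Itgb1 between experiments in DCA was 0.018. With 5 CPM in 3 libraries, Itgal was 0.0204 over both, 0.0725 in experiment 1 and -0.0164 between experiments in DCA, and the differences of Itga4 and Itgae were -0.0869 and -0.0381. In a fit of the compared groups alone, Itgal was 0.0577 in experiment 1 and -0.00984 between experiments in DCA. The untreated Itgb1 difference between experiments lost its call by RLE (adjusted p = 0.0526), with no filter (0.0789) and with 5 CPM in 3 libraries (0.0676 by edgeR).

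With 1 library left out, Itgal ranged from -0.0568 to 0.00408 over both, -0.0907 to 0.0466 in experiment 1, -0.141 to 0.0609 for the difference, -0.0446 to 0.0709 between experiments in DCA and -0.039 to 0.12 in untreated libraries. Itgb1 ranged from -0.123 to 0.116 between experiments in DCA, and Selplg from -0.0549 to 0.0289 and Itgb7 from -0.159 to 0.043 in experiment 2. The differences of S1pr1, Itga4 and Itgae ranged from -0.0468 to 0.713, -0.166 to 0.123 and -0.329 to 0.425.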
